A study of Mus musculus with 14 samples.

Results

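Chromatin accessibility was compared between MPP3 progenitors carrying an Npm1 mutation alone and MPP3 progenitors carrying a Dnmt3a mutation alone, a contrast of 4 libraries out of 14 in the study. MPP3 are multipotent progenitors of mouse bone marrow whose output leans towards granulocytes and macrophages. The comparison was made over 25058 of the 705361 deposited regions, namely those on chromosomes 1 to 19 and X with a mean value of at least 100 across all 14 libraries. The assay was ATAC-seq, which cuts and tags exposed DNA with a transposase, so that a high value marks accessible chromatin. All donors were C57BL/6J mice. The Npm1 group carried Npm1-frt/+ (written Npm1c in the titles), the Dnmt3a group carried Dnmt3a-flR878H/+, the double mutant group carried both alleles, and the wild-type (WT) group carried Mx-Cre, which the labels name for that group only. For every group 1000000 whole bone marrow cells were transplanted into lethally irradiated CD45.1 recipients. Recipients of all groups received poly(I:C) 4 weeks later and tamoxifen 4 weeks after that, and MPP3 and long-term haematopoietic stem cells (LT-HSC) were sorted after a further 4 weeks.

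Each single-mutant MPP3 group held 2 libraries, here called A and B. Beside them stood 2 MPP3 WT libraries and 1 MPP3 double mutant library, and LT-HSC with 2 Npm1 libraries and 1 Dnmt3a library. Nothing in the labels ties A and B to different animals, and p-values therefore reflect only how far these libraries spread, which could be technical. Since fewer cells of a type and less open chromatin per cell give the same value in a bulk library, the 2 cannot be told apart.

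NPM1 is a nucleolar chaperone of ribosome assembly, and the leukaemic mutation moves the protein into the cytoplasm. Acute myeloid leukaemia with mutant NPM1 is known for high expression of HOXA and HOXB genes and of their partner MEIS1. DNMT3A adds methyl groups to CpG dinucleotides de novo, and the arginine change modelled here lowers that activity and is a common early lesion of clonal haematopoiesis that often precedes mutation of NPM1.

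For some start sites named in the results below, none of them called between Npm1 and Dnmt3a MPP3, the promoter sequence is shown first. Each run is the 250 bases before the annotated start, 5′ to 3′ on the gene's strand, from RefSeq on GRCm38.p6 (the assembly of mm10), with CpG dinucleotides in capitals. The Hoxa5 promoter (chr6:52204588-52204837, minus strand) and the Plekhh3 promoter (chr11:101171373-101171622, minus strand) lay in regions whose values were lower in Npm1 MPP3. The Plekhh3 region is 8844 bp wide and is shared with Ccr10 and Cntnap1. The Hoxa5 region is 1746 bp wide and is shared with Hoxa3, Hoxa6 and Hoxaas3. A value belongs to the whole region, not to the printed bases alone. The Susd6 (chr12:80790282-80790531, plus strand), Yif1b (chr7:29238073-29238322, plus strand) and E130308A19Rik promoters (chr4:59625961-59626210, plus strand) lay in regions whose values were higher in Npm1 MPP3. Lyrm7 (chr11:54860598-54860847, minus strand) had opposite signs in MPP3 and LT-HSC.
Hoxa5: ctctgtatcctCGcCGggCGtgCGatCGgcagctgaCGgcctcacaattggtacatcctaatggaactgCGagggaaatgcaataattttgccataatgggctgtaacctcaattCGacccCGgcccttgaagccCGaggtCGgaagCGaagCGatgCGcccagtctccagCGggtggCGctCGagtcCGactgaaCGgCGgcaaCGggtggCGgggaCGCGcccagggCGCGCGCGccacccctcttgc
Plekhh3: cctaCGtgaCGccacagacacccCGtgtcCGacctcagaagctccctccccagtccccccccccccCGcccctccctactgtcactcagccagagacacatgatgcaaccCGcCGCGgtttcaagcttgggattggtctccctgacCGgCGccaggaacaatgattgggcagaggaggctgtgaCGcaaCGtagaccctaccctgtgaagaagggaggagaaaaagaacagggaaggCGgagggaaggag
Susd6: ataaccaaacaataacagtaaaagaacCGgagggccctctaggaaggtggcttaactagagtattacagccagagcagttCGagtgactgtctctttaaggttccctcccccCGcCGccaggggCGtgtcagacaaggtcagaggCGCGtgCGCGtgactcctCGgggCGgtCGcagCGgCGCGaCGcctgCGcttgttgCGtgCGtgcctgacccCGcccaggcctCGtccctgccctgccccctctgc
Yif1b: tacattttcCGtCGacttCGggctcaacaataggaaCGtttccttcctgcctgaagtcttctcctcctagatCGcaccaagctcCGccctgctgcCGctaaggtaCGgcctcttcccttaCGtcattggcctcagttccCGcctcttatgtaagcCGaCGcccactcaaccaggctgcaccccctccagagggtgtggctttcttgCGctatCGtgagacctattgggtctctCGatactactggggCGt
E130308A19Rik: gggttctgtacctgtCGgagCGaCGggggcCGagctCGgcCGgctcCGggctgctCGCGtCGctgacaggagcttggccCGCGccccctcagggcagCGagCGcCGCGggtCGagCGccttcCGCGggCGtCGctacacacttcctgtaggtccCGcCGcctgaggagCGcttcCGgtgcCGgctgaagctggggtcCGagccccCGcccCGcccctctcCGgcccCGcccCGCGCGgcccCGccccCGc
Lyrm7: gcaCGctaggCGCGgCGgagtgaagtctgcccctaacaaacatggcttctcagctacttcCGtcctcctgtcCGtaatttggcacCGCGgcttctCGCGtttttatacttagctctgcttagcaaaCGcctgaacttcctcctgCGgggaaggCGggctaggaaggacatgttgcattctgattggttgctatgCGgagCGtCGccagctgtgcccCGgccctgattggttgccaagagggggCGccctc
The printed stretches hold 28 CpG at Hoxa5, 13 at Plekhh3, 21 at Susd6, 16 at Yif1b, 37 at E130308A19Rik and 18 at Lyrm7. Promoters on both sides of the contrast were thus CpG rich or CpG moderate, and none of the 6 was CpG free.

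Of the 25058 regions, 2 passed the threshold (0.00798%), both lower in Npm1 MPP3 (limma, Benjamini-Hochberg adjusted p under 0.05), and 0 were higher. At an unadjusted p under 0.05 there were 3000 regions (12%), 1509 higher (6.02%) and 1491 lower (5.95%). The values of both Npm1 libraries lay outside those of both Dnmt3a libraries, without overlap, at 11466 regions (45.8%). The 4 libraries differed in enrichment, meaning the share of a library's signal that fell in the tested regions. It was 21.97% and 26.3% in the Dnmt3a libraries and 32.3% and 44.4% in the Npm1 libraries, so the groups did not overlap in it. With the log2 of this share as a covariate, 0 regions passed and 1118 had an unadjusted p under 0.05 (4.46%), 665 higher (2.65%) and 453 lower (1.81%). The median standard error (SE) of a log2 difference was 0.42 without the covariate and 0.53 with it. Of all regions, 78.0% kept the sign of their difference with the covariate, and 746 had an unadjusted p under 0.05 in the same direction in both fits.

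The spread was unequal between the groups. Over the tested regions the 2 Npm1 libraries correlated at r = 0.937 and the 2 Dnmt3a libraries at r = 0.619, lower than any pair of 1 Npm1 and 1 Dnmt3a library (0.677 to 0.746). These correlations are across 25058 regions that share the libraries and the deposited region set, and they describe the libraries only. The value with either Dnmt3a library left out is therefore given where it changes a call. Without Dnmt3a A, 148 regions passed, 129 higher and 19 lower in Npm1 MPP3, and without Dnmt3a B, 422 passed, 362 higher and 60 lower. Most of these were thus higher, whereas both regions called with all libraries were lower. In these fits the Dnmt3a arm holds 1 library, assumed to vary like the other groups, and the distance between the 2 Dnmt3a libraries no longer enters the error. Only 13 regions passed in both cases, which is 8.78% of the first set and 3.08% of the second. Of these, 5 were lower in Npm1 MPP3 (among them Mx1, Tmem267, Kif19a and Hoxa5) and 8 were higher (near Mcfd2 and Lmntd1 and at Pparg, Ano8, Yif1b, Clec16a, E130308A19Rik and Fhit). Without either Npm1 library, 0 regions passed in limma's adjusted test.

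In the values below, the deposited value was divided by a scaling factor per library, and a difference is Npm1 minus Dnmt3a on the scale of log2(normalized value + 4). A region is named after the gene it overlaps or, failing that, the nearest gene within 100000 bp. The name marks a position, and no region was shown to regulate the gene.

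The lowest p in the contrast was at Mx1, an interferon-induced gene whose product restricts viruses and which RefSeq lists as a transcribed pseudogene in this strain's genome. The region (chr16:97462728-97465500) overlapped the gene's upper bound by 179 bp and ran 2594 bp beyond it. Its normalized values were 1620 and 987 in the Dnmt3a MPP3 libraries and 116 and 145 in the Npm1 MPP3 libraries, with 1149 and 446 in WT and 730 in the double mutant. All 5 other MPP3 libraries stood above both Npm1 libraries. Accessibility fell by 3.25 on the log2 scale in Npm1 MPP3 against Dnmt3a MPP3 (SE 0.41, limma adjusted p = 0.00403). The fall was 2.44 with the enrichment covariate, where the call was lost (SE 0.43, adjusted p = 0.443). The call was also lost without Npm1 A (adjusted p = 0.192) and without Npm1 B (adjusted p = 0.131), and it was kept without any 1 of the other 12 libraries. It was lost with no filter on low values too (-2.48, adjusted p = 0.615), with only the 7 MPP3 libraries (adjusted p = 0.250) and with only the 4 compared libraries (adjusted p = 0.0931).

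Mx1 was low in Npm1 stem cells too, on scales that do not allow for enrichment. Per 1000000 of library signal, the region held 5.87 to 11.3 in the 4 libraries of Npm1 alone, MPP3 and LT-HSC together, and 32.5 to 67.8 in the other 10 libraries. In deposited units the 2 ranges were 99 to 234 and 807 to 1489. The Npm1 libraries overlapped no other library on either scale, and the double mutant libraries, which carry the same Npm1 allele, lay with the others. With library totals as the scale, Mx1 differed by -2.05 in LT-HSC, where the median of all regions was -1.19. In LT-HSC the difference on the normalized scale was -0.84 (SE 0.50, limma adjusted p = 0.391), and -2.24 with the enrichment covariate (SE 0.62), close to the -2.44 of MPP3 in that fit. Neither LT-HSC difference passed the threshold. An average over both cell types holds the 4 compared MPP3 libraries, in which Mx1 was picked, so it is no independent support. Averaged in this way with the enrichment covariate, the difference at Mx1 was -2.34 (SE 0.28, limma adjusted p = 0.00277). This was the only region past the threshold in that comparison (0.00399% of regions, limma, beside 5.07% at an unadjusted p under 0.05). It stayed past the threshold in 23 of 23 alternative settings (adjusted p 5.998e-18 to 0.0468). In the rest of the locus, 30 smaller regions within 20000 bp summed to 26.1 to 56.9 per 1000000 in the Npm1 libraries and 24.9 to 80.6 in the others, so those ranges overlapped. The deposited value of any of these 30 regions was at most 186. The Mx-Cre transgene carries a promoter sequence taken from Mx1, and the labels name Mx-Cre for WT donors only. Whether reads of the region came from the endogenous gene or from a transgene was not tested.

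**Figure D1:**
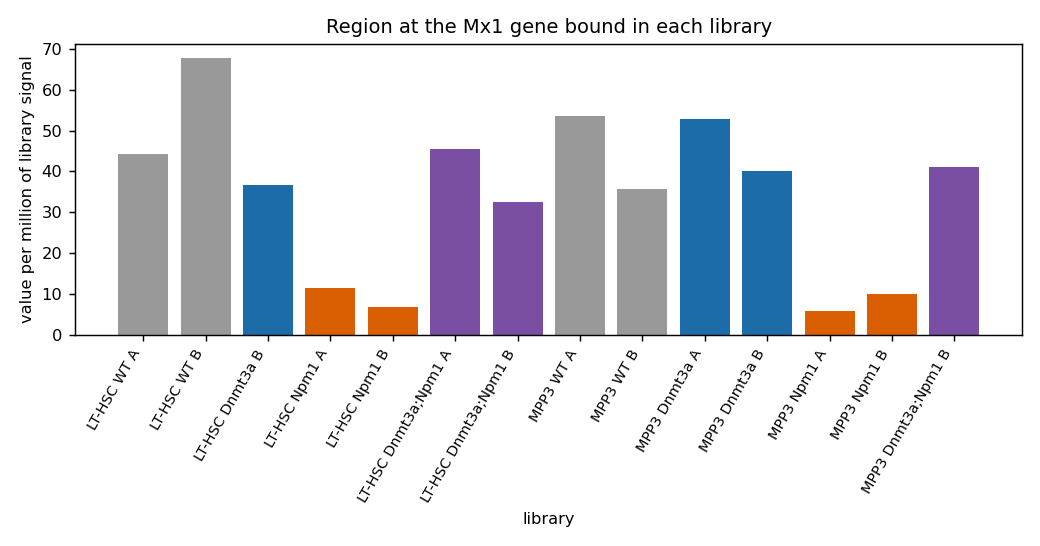
Bars give the value of the region at the Mx1 gene bound per 1000000 of library signal, for each of the 14 libraries (x axis), coloured by genotype. The 4 Npm1 libraries lie between 5.87 and 11.3 and the other 10 between 32.5 and 67.8. This scale does not allow for enrichment.

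The other region past the threshold lay inside Tmem267, a gene for a predicted transmembrane protein (chr13:119597609-119598348). Normalized values were 540 and 319 in the Dnmt3a MPP3 libraries, 59.0 and 53.4 in the Npm1 MPP3 libraries, 235 and 84.0 in WT and 240 in the double mutant. The Npm1 libraries were lowest and the Dnmt3a libraries highest of the 7. Accessibility fell by 2.80 (SE 0.43, limma adjusted p = 0.0326), and by 1.82 with the enrichment covariate (SE 0.44), where it did not pass. Across 27 alternative settings it passed in 15, and it did not pass without either Npm1 library. All 5 tested regions named after Tmem267 had lower values in both Npm1 libraries than in both Dnmt3a libraries, as had 22.9% of all tested regions. At the far end of the gene, 3 more of them differed by -3.62 (SE 0.69), -2.66 (SE 0.72) and -2.10 (SE 0.59), the last lying beyond the gene. The 2 WT MPP3 libraries also lay far apart there, at 162 and 31.3, 338 and 87.0, and 1083 and 307. The start site differed by -0.50 (SE 0.28), with 624 and 476 in Npm1 against 637 and 933 in Dnmt3a. Neither the start site nor these 3 regions passed the threshold. With the covariate the 3 differed by -1.80, -0.79 and -0.65, and the start site by -0.18. In LT-HSC the called Tmem267 region had the opposite sign, +2.03 (SE 0.53, adjusted p = 0.0983), but +0.31 with the covariate (SE 0.64), within its SE of 0.

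Hoxa5 encodes a homeodomain factor of the HoxA cluster, and its start site region (chr6:52203222-52204967) holds the promoter printed above. It measured 263 and 245 in the Dnmt3a libraries, 62.2 and 59.6 in the Npm1 libraries, 121 and 102 in WT and 224 in the double mutant. WT thus lay between the single mutants and the double mutant lay near the Dnmt3a libraries. The difference was -1.99 (SE 0.35, limma adjusted p = 0.0533), just outside the threshold, and -1.77 with the covariate. It passed with either Dnmt3a library left out, under the assumption given above for an arm of 1 library.

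The region inside Kif19a, a kinesin of motile cilia, measured 235 and 255 in Dnmt3a MPP3 and 54.8 and 26.7 in Npm1 MPP3 (-2.55, SE 0.44, limma adjusted p = 0.0533). Sox15, an SRY-box factor, had 243 and 339 against 40.0 and 39.7 at its start site (-2.73, SE 0.56, adjusted p = 0.110). Both were also lower in WT than in Dnmt3a MPP3. Egr3, an early response zinc finger factor, had 573 and 650 against 268 and 195 (-1.40, SE 0.29, limma adjusted p = 0.117). Rara, the retinoic acid receptor that governs granulocytic maturation, had 436 and 279 against 103 and 67.7 (-2.01, SE 0.42, limma adjusted p = 0.127). None of these 4 passed.

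No region was called higher in Npm1 MPP3, and the 8 of smallest p had adjusted p-values of 0.0533 to 0.0665. Among them Pparg, the nuclear receptor known for fat and macrophage lipid programmes, measured 16.0 and 31.7 in the Dnmt3a libraries, 146 and 142 in the Npm1 libraries, 114 and 124 in WT and 183 in the double mutant (chr6:115480015-115481258, inside the gene). Only the Dnmt3a libraries were low, at deposited values of 10 and 27. The difference was 2.47 (SE 0.44, limma adjusted p = 0.0533) and 2.52 with the covariate. Clec16a, a regulator of mitophagy, gave 12.8 and 7.0 against 113 and 97.5, with 70.4 and 63.1 in WT and 138 in the double mutant. Its difference was 3.0 (SE 0.57, limma adjusted p = 0.0665) and 3.71 with the covariate, but the Dnmt3a values rest on deposited values of 8 and 6.

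Susd6, a p53-induced gene, measured 92.6 and 168 against 452 and 401 at its start site (1.74, SE 0.32, limma adjusted p = 0.0644). Yif1b, a protein of vesicle traffic from the endoplasmic reticulum, had 126 and 143 against 381 and 419 (1.54, SE 0.29, adjusted p = 0.0665). WT and double mutant values at both promoters lay within 337 to 474, among or next to the Npm1 values. Plekha2, an adaptor that binds membrane phosphoinositides, had 12.8 and 42.2 against 196 and 211 (2.90, SE 0.51). The region near Mcfd2, a cargo receptor for coagulation factors, had 28.7 and 31.7 against 168 and 217 (2.51, SE 0.44). Their Dnmt3a values rest on low deposited values, 8 and 36 at Plekha2 and 18 and 27 near Mcfd2. Ano8, which tethers the endoplasmic reticulum to the plasma membrane, differed by 1.95 (SE 0.35). Ptbp3, a splicing regulator of the polypyrimidine tract family, had 126 and 324 against 676 and 780 (1.82, SE 0.34), and 1.16 without Dnmt3a A.

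The enrichment-adjusted order added 3 regions to those of smallest p, none of them called. E130308A19Rik, a gene of unassigned function, measured 87.8 and 76.3 against 319 and 304 at the promoter printed above (1.88, SE 0.36, and 2.15 with the covariate). The region near Gfod1, of the oxidoreductase domain family, differed by 2.32 without and 2.82 with the covariate. Its Dnmt3a values rest on deposited values of 18 and 13. Plekhh3, of the pleckstrin homology family, differed by -1.19 without and -1.37 with it, from 1135 and 2040 in Dnmt3a MPP3 to 697 and 636 in Npm1 MPP3.

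**Figure D2:**
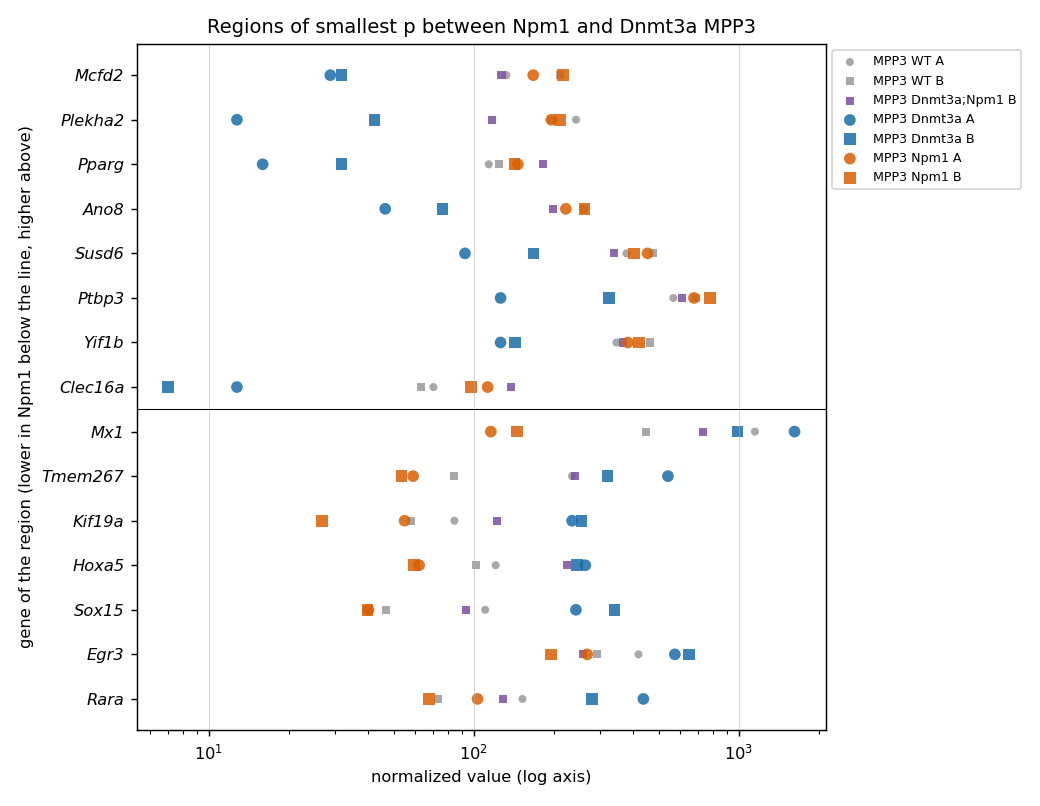
Points give the normalized value (log axis) of each MPP3 library at regions of smallest p in each direction, lower in Npm1 below the line and higher above it, with colour for genotype and shape for replicate. Npm1 (orange) and Dnmt3a (blue) points do not overlap at any region shown, by the rule that chose them, and grey WT points lie near the Npm1 points at, for example, Pparg, at 114 and 124 against 146 and 142.

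Chromosome 18 carried a shift of its own in 1 library. In MPP3 Dnmt3a B, its share of the signal outside the tested regions was 0.78 (log2) above the median library, whereas the other 13 libraries lay between -0.56 and 0.09. The excess was seen along the whole chromosome, with all 10 windows of 10 Mb at 0.65 to 0.96 in that library and no window of any other library above 0.53. Tested regions of chromosome 18 had a median of 0.47 above the median library in Dnmt3a B and 0.03 in Dnmt3a A. In the contrast, the 700 regions of chromosome 18 had a median difference of -0.23, and 12.9% were lower against 1.29% higher at an unadjusted p under 0.05. Cd14, the endotoxin co-receptor of monocytes, lies there and measured 297 and 329 in Dnmt3a MPP3 against 149 and 170 in Npm1 MPP3 (-0.96, SE 0.34, limma adjusted p = 0.278). Map3k8, a kinase of the NF-kB pathway, lies there too (-1.35, SE 0.42). What part the shift had in these values was not tested.

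Chromosome 11 had a smaller shift in the same library, 0.39 outside the tested regions and 0.19 within them. It was not alone, since chromosome 10 stood at 0.29 and 0.20 in Dnmt3a B. Chromosomes 1, 5 and 17 stood at -0.32, -0.35 and -0.32 outside the tested regions in that library. On chromosome 11, the double mutant LT-HSC library B was at -0.55 outside the tested regions, and the Npm1 MPP3 libraries were at -0.17 and -0.12. The 2265 regions of chromosome 11 had a median difference of -0.18, with 13.5% lower and 3.27% higher at an unadjusted p under 0.05. The other 18 chromosomes had medians of -0.05 to 0.13. Of the lower regions named above, those at Kif19a, Sox15, Rara and Plekhh3 lie on chromosome 11, which holds 9.04% of the tested regions. Hoxb genes, Meis1, Mpo and Npm1 itself also lie on it. After the median of each chromosome was subtracted in each library, the same number of regions, 2, passed, 0 higher and 2 lower, and 2949 had an unadjusted p under 0.05.

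**Figure D3:**
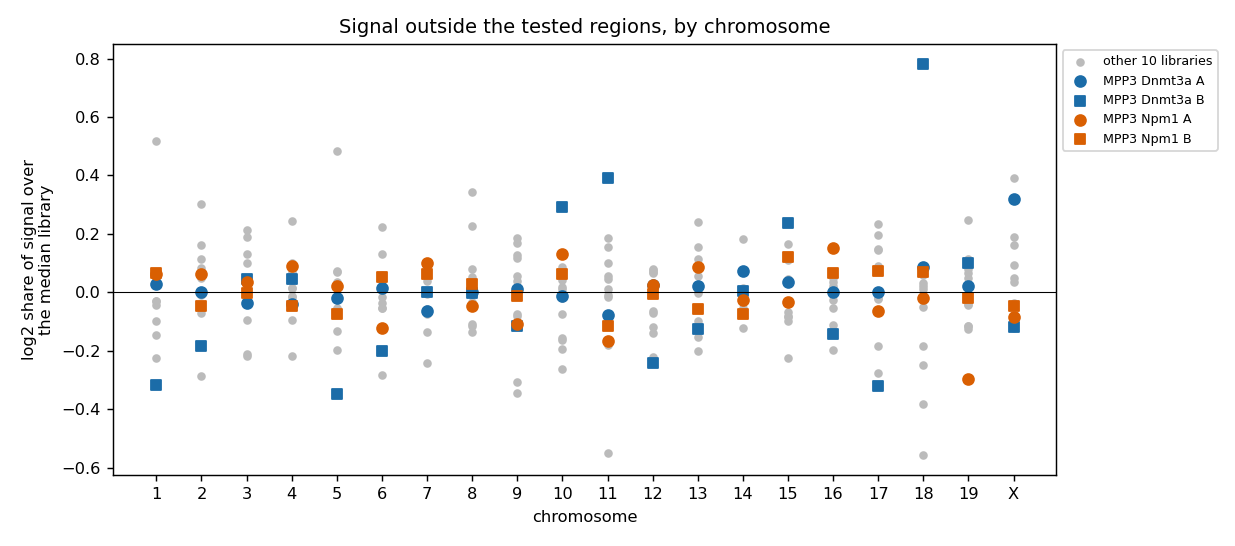
Points give, for each chromosome (x axis), the log2 share of a library's signal outside the tested regions relative to the median library, with the 4 compared libraries in colour and the other 10 in grey. MPP3 Dnmt3a B stands at 0.78 on chromosome 18 and at 0.39 on chromosome 11.

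At the mutated genes themselves, accessibility cannot check the genotype, since neither allele need alter open chromatin. The Npm1 region measured 377 and 381 in Dnmt3a MPP3 and 490 and 515 in Npm1 MPP3, without overlap. Its difference was 0.40 (SE 0.33, limma adjusted p = 0.649) and -0.05 with the enrichment covariate. The 6 tested regions of Dnmt3a differed by -0.63 to -0.01, and none passed.

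Hox genes pattern the body axis and sustain self-renewal of blood stem cells. The list of HoxA and HoxB genes had 17 of its 21 genes with a tested region, 24 regions in all. Of these, 0 passed in either direction. At an unadjusted p under 0.05, 0 were higher and 5 lower, against 6.02% and 5.95% of all tested regions. Of the 24 regions 21 were below 0, whereas 12925 of all 25058 were above it. Values were lower without overlap at 13 of 24, against 22.9% of all tested regions, and higher at 2, against 22.8%. The list's median difference was -0.56, or -0.34 with the covariate and -0.41 with chromosome medians removed, beside 0.023 for all regions. The median Hox value was 249 and 229 in the Dnmt3a libraries, 114 and 113 in the Npm1 libraries, 156 and 120 in WT and 143 in the double mutant. The Dnmt3a libraries thus stood above every other MPP3 library. In LT-HSC the list's median difference was 0.00.

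By cluster, HoxA had a median of -0.26 over 13 regions, 10 of them below 0, and HoxB, on chromosome 11, -0.68 over 11 regions, all 11 below 0. With the covariate the medians were -0.19 and -0.87, and the difference between the clusters was not tested. Hoxb8, a factor that holds myeloid progenitors immature when overexpressed, measured 297 and 275 in Dnmt3a MPP3 and 71.6 and 54.6 in Npm1 MPP3 (-2.12, SE 0.52, limma adjusted p = 0.168). Its start site gave -2.05 (SE 0.55), and regions inside Hoxb9 and Hoxb6 gave -1.48 (SE 0.41) and -1.50 (SE 0.48). WT values at these 4 regions lay with the Npm1 values or between the mutants. The HOX genes most often named in NPM1-mutant leukaemia had smaller differences. Hoxa9 had 209 and 230 against 308 and 281 at its start site (0.42, SE 0.35, limma adjusted p = 0.660) and 0.09 in a second region. Hoxa10 gave -0.56 and -0.23. The Meis1 start site had 699 and 808 in Dnmt3a MPP3 against 460 and 497 in Npm1 MPP3, without overlap (-0.65, SE 0.26, limma adjusted p = 0.324), and its other 8 regions ranged from -1.02 to 0.51.

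Developmental factors of other tissues, which blood cells normally keep under Polycomb, had a median below 0. Of 45 genes, 36 had a tested region, 60 in all, and the median difference was -0.50, or -0.21 with the covariate. No region passed. At an unadjusted p under 0.05, 1 was higher and 13 were lower, against 6.02% and 5.95% of all tested regions. With the covariate, however, 3 were higher and 2 lower, against 2.65% and 1.81%. Values were lower without overlap at 31 of 60, against 22.9% of all tested regions. The median value was 186 and 138 in the Dnmt3a libraries, 115 and 86.6 in the Npm1 libraries, 161 and 95.3 in WT and 134 in the double mutant, so the WT libraries lay near the Npm1 values in 1 case and towards the Dnmt3a values in the other. Pax2, a kidney and eye factor, had regions of both signs. Its start site had 385 and 255 in Dnmt3a against 138 and 68.9 in Npm1 MPP3 (-1.64, SE 0.42), and a region inside it had 25.5 and 15.2 against 107 and 96.9 (2.15, SE 0.60). Lhx2, a forebrain factor, gave -1.28 (SE 0.36), and Hand2, of heart and limb, gave -1.36 (SE 0.45). In LT-HSC the list's median had the other sign, 0.97, and it was 0.21 with the covariate. There 54 of 60 regions were above 0 without the covariate, beside 12533 of all 25058.

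Neutrophil granule genes, which mark granulocytic commitment, had a median of 0.34 over 23 regions of 12 genes, or 0.25 with the covariate. Of these regions 0 passed and 17 were above 0, beside 12925 of all 25058. At an unadjusted p under 0.05, 3 were higher and 0 lower, against 6.02% and 5.95% of all tested regions. Mmp9, a matrix protease of granules, measured 38.3 and 98.5 in Dnmt3a MPP3 and 178 and 174 in Npm1 MPP3 (1.45, SE 0.45, limma adjusted p = 0.235), and the difference was 0.81 without Dnmt3a A. Ncf1, a subunit of the oxidase that makes superoxide, had 71.8 and 39.9 against 138 and 143 at 1 start site region (1.32, SE 0.50). The Ctsg start site, of cathepsin G, had 172 and 2.35 in the Dnmt3a libraries and 280 and 219 in the Npm1 libraries (2.91, SE 1.14), so its size rests on Dnmt3a B. Mpo, the myeloperoxidase gene, gave 0.62, -0.72 and 0.75 in its 3 regions, and the first was 1.19 without Dnmt3a A and 0.05 without Dnmt3a B. The list's median value was 172 and 188 in Dnmt3a, 191 and 184 in Npm1 and 163 and 164 in WT, so the groups overlapped at that level.

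Myeloid transcription factors had a median of -0.17 over 81 regions, with 3 higher and 8 lower at an unadjusted p under 0.05 and 0 called. Of all tested regions, 6.02% were higher and 5.95% lower at that p. Irf8, which directs monocyte and dendritic fate, had 4 regions at -1.27 to -0.13, and Cebpa, required for granulocyte progenitors, had 0.32 at its start site (SE 0.23). Myc, a growth regulator, had 251 and 453 in Dnmt3a MPP3 against 610 and 694 in Npm1 MPP3 at a region inside it (0.94, SE 0.28, limma adjusted p = 0.218, and 0.52 without Dnmt3a A). Among 53 cytokine receptor regions (median 0.08), Flt3, the receptor of early progenitors, had 25.5 and 126 against 224 and 194 (1.78, SE 0.51, limma adjusted p = 0.205). The size rests on Dnmt3a A, since the difference was 0.72 without it and 2.85 without Dnmt3a B. WT and double mutant values at Flt3 were 217, 179 and 226, near the Npm1 values.

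NPM1 acts in ribosome assembly. The genes of ribosomal proteins had a median of 0.22 over 36 regions, 3 higher and 0 lower at an unadjusted p under 0.05. With the covariate the median was 0.09, with 0 in either direction. Of all tested regions, 6.02% were higher and 5.95% lower at that p, or 2.65% and 1.81% with the covariate. Rps3, of the small subunit, had 172 and 136 against 321 and 312 (1.03, SE 0.44, limma adjusted p = 0.367), and Rpl4, of the large subunit, had 41.5 and 86.8 against 177 and 144 (1.35, SE 0.47, and 0.85 without Dnmt3a A). Nucleolar and ribosome biogenesis genes, however, had a median of -0.01 over 42 regions. Among them Wdr43, a nucleolar processing factor, had 196 and 217 against 490 and 488 at its start site (1.23, SE 0.30, limma adjusted p = 0.168). Genes of p53 and apoptosis had a median of 0.25 over 55 regions. At an unadjusted p under 0.05, 2 were higher and 1 lower (6.02% and 5.95% of all tested regions). Apaf1, the apoptosome scaffold, gave 0.91 (SE 0.35), with Dnmt3a values of 263 and 697 that lay far apart, and 0.22 without Dnmt3a A.

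In the 12 lists not described here, medians lay between -0.16 and 0.19 in MPP3, and Mx1, in the interferon response list, was the only region called in any of the 23 lists. The other 44 regions of that list had a median of 0.07. At an unadjusted p under 0.05, 1 was higher and 0 lower (6.02% and 5.95% of all tested regions). Ifih1, a sensor of double-stranded RNA, had 28.7 and 181 in Dnmt3a MPP3 against 269 and 313 in Npm1 MPP3 (1.92, SE 0.53, limma adjusted p = 0.200), and the difference was 0.67 without Dnmt3a A. Genes of DNA methylation and demethylation had a median of 0.00 over 49 regions. At an unadjusted p under 0.05, 4 were higher and 3 lower, against the same shares of all tested regions. Niche and endothelial genes had a median of -0.13 over 25 regions, with 0 higher and 6 lower at an unadjusted p under 0.05 (6.02% and 5.95% of all tested regions). With the covariate 0 were higher and 1 was lower, against 2.65% and 1.81% of all tested regions. Col1a1, a collagen of bone, had 356 and 268 in Dnmt3a MPP3 and 80.1 and 90.7 in Npm1 MPP3 (-1.81, SE 0.48).

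**Figure D4:**
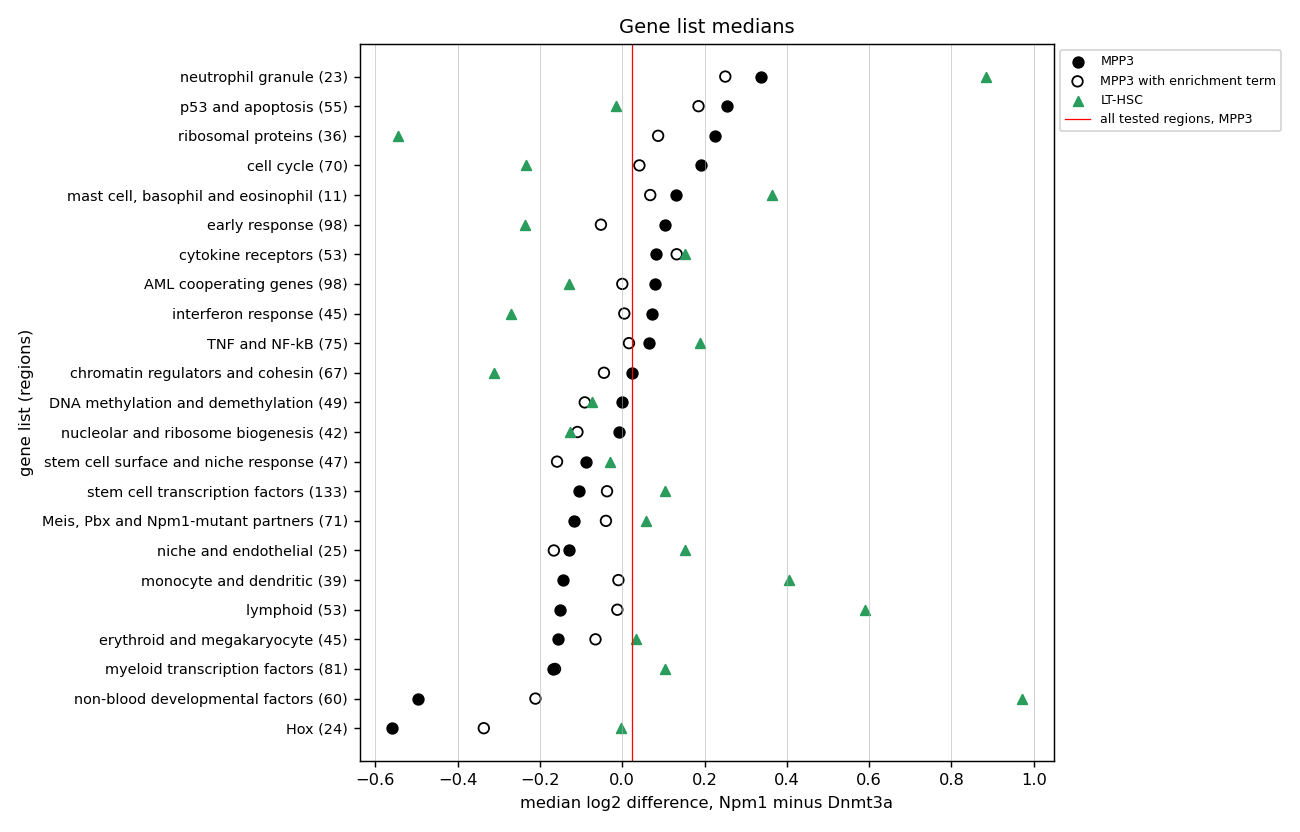
Points give, for each gene list (number of tested regions in brackets), the median log2 difference, Npm1 minus Dnmt3a, in MPP3 without and with the enrichment term and in LT-HSC. The red line marks the MPP3 median of all tested regions, 0.02, and the Hox list lies lowest at -0.56.

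Marker genes of cell types had the following normalized values, summed over regions. Granulocyte and macrophage progenitor markers, with all 8 genes represented, summed to 4313 and 4943 in the Dnmt3a libraries, 5258 and 5975 in the Npm1 libraries and 2755 to 5153 in LT-HSC. Stem cell markers, with all 6 genes, summed to 3307 and 3341 in Dnmt3a MPP3, 2893 and 2916 in Npm1 MPP3 and 3265 to 4362 in LT-HSC. The Npm1 libraries were thus higher in the first sum and lower in the second than the Dnmt3a libraries, without overlap, and the part of this in the regions above was not tested. In both sums the Dnmt3a MPP3 libraries lay within the LT-HSC range and the Npm1 MPP3 libraries outside it. These markers therefore did not set the Dnmt3a MPP3 libraries apart from LT-HSC. Erythroid and megakaryocyte markers, with 4 of 5 genes represented, summed to 3210 to 4179 in Dnmt3a MPP3 and 3036 to 3268 in Npm1 MPP3, which overlapped. Of the lymphoid markers only 1 of 5 genes had a tested region, and Il7r, Rag1 and Cd3e were among those with none. That 1 region measured 148 and 155 in Dnmt3a MPP3, 73.9 and 80.1 in Npm1 MPP3, without overlap, and 44.0 to 194 in LT-HSC. Of the mast cell, basophil and eosinophil markers 1 of 4 had one, and of the niche markers 1 of 3, with sums of 461 to 767 in Dnmt3a and 281 to 285 in Npm1 MPP3.

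By type of region, those within 1000 bp of a start site had a median of 0.11 (11026 regions), those inside genes -0.06 (9904) and intergenic ones -0.03 (3428). With the enrichment covariate the 3 medians were 0.01, 0.05 and 0.06, so the difference in sign was gone. Over 4 groups of regions of equal size, from the lowest to the highest mean value, the median was -0.20, -0.11, 0.05 and 0.20. With the enrichment covariate these 4 medians were 0.06, 0.03, 0.00 and 0.00, and in LT-HSC, where enrichment was lower in the Npm1 libraries (19.1% and 15.4%) than in the Dnmt3a library (38.0%), they were 0.55, 0.30, -0.11 and -0.50, or 0.12, 0.04, -0.02 and -0.15 with the covariate. The enrichment gap, Npm1 minus Dnmt3a, was 0.66 (log2) in MPP3 and -1.15 in LT-HSC.

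Promoters could be read as sequence in 9587 regions that hold a whole RefSeq promoter of 300 bases, from 250 before to 50 after the start. Motifs were searched by exact letters on both strands, some of which can overlap each other. The ETS motif CCGGAAG, bound by ETS-family factors such as GABPA, was present in 17.7% of these promoters and in 8.86% of all 32851 promoters of the table. It occurred in 20.3% of the 829 with a higher value at an unadjusted p under 0.05 and in 9.25% of the 346 with a lower one. With the enrichment covariate the order turned: it occurred in 16.4% of 225 promoters with a higher value and in 19.05% of 126 with a lower one. The CCAAT box (CCAAT), bound by NF-Y, stood at 37.1% of all promoters in regions, 39.4% of the higher and 30.1% of the lower, beside 37.4% of the whole table, and with the covariate at 32.4% and 33.3%. The GC box (GGGCGG), bound by SP factors, stood at 70.2%, 73.6% and 68.2%, beside 35.7% of the whole table, and with the covariate at 63.6% of the higher and 72.2% of the lower. None of the 3 motifs thus kept a higher share among the higher promoters in that fit. A match describes the letters only.

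LT-HSC gave the nearest comparison, with the limit that Dnmt3a had 1 library there, assumed to vary like the other groups. In LT-HSC 3 regions passed (0.012%), all higher in Npm1, and 4379 had an unadjusted p under 0.05 (17.5%). They lay at the Col19a1 start site (4.60, SE 0.70, limma adjusted p = 0.039), Cmss1 (1.76, SE 0.28, adjusted p = 0.039) and Zc3h7a (1.71, SE 0.28, adjusted p = 0.043). The size at Col19a1 rests on a deposited value of 7 in the Dnmt3a library, beside 112 and 74 in Npm1 and 89 and 104 in WT LT-HSC. Before scaling, the LT-HSC values overlapped at Cmss1, with 1660 and 1006 in Npm1 against 1228 in Dnmt3a. They also overlapped at Zc3h7a, with 1133 and 843 against 962. With the enrichment covariate, Col19a1, Cmss1 and Zc3h7a differed by 3.01, 1.15 and 1.15 in LT-HSC. Col19a1 encodes a collagen, Cmss1 a small-subunit ribosome factor and Zc3h7a an RNA-binding zinc finger protein. In MPP3 the same regions differed by -0.59 (SE 0.58), -0.48 (SE 0.22) and -0.34 (SE 0.23). With the enrichment covariate, 0 regions passed in LT-HSC in limma, and 587 had an unadjusted p under 0.05 (2.34%). Averaged over both cell types without the covariate, 0 passed and 1793 had an unadjusted p under 0.05 (7.16%).

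The test of the difference between the cell types was passed by 681 regions (2.72%), 308 with a higher (1.23%) and 373 with a lower (1.49%) Npm1 minus Dnmt3a difference in MPP3 than in LT-HSC. The 308 lay at start sites in 81.2% of cases and had a median difference of 0.65 in MPP3 and -1.17 in LT-HSC, while 24.4% of the 373 lay at start sites, with medians of -1.32 and 1.87. Of all tested regions 44.0% lay at start sites. Since the regions were chosen by this contrast, those medians describe them only. Lyrm7, an assembly factor of mitochondrial complex III, illustrates the first kind. At its promoter region MPP3 had 160 and 119 in Dnmt3a and 374 and 352 in Npm1, and LT-HSC had 376 in Dnmt3a and 114 and 127 in Npm1. The difference was 1.37 (SE 0.30) in MPP3 and -1.61 (SE 0.37) in LT-HSC, which differ by 2.99 (SE 0.48, limma adjusted p = 0.014). Coro1b, an actin regulator, illustrates the second, with -2.07 (SE 0.44) in MPP3 and 2.43 (SE 0.54) in LT-HSC. With the enrichment covariate 0 regions passed this test in limma, and 539 had an unadjusted p under 0.05 (2.15%). The enrichment gap between Npm1 and Dnmt3a had opposite signs in the 2 cell types. The parts of enrichment and genotype cannot be told apart from these libraries.

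**Figure D5:**
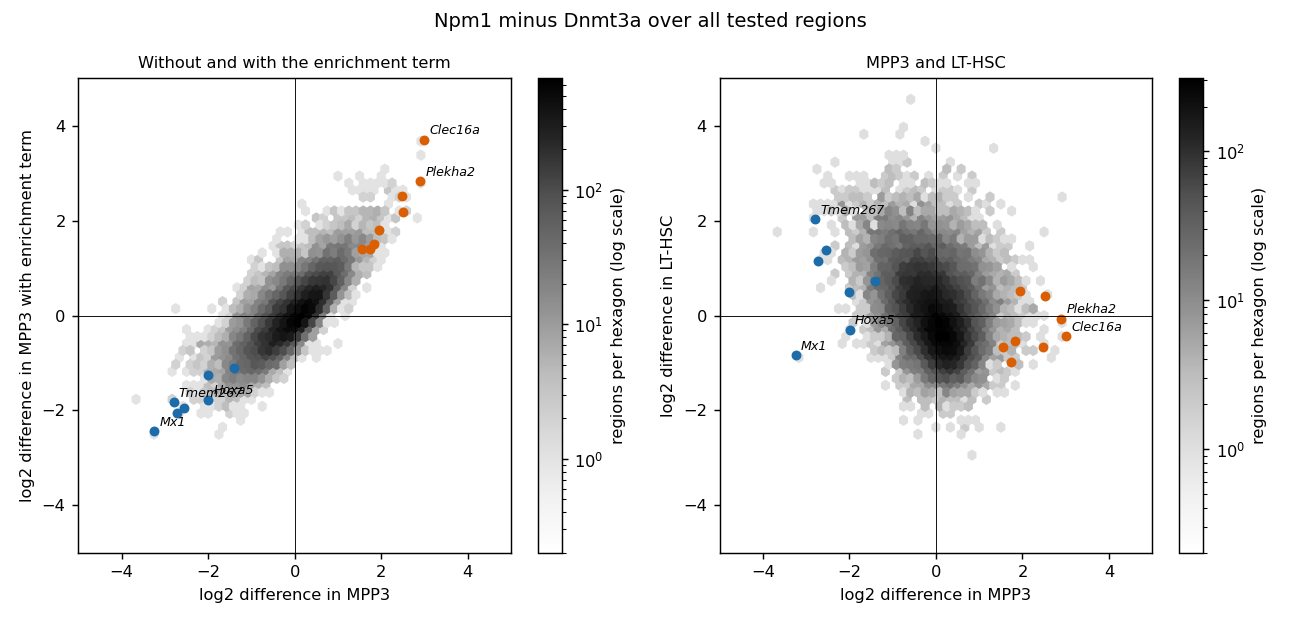
Hexagons show the density of the 25058 regions by their log2 difference, Npm1 minus Dnmt3a, in MPP3 (x axis) against the same with the enrichment term (left) and against LT-HSC (right), with regions of smallest p in MPP3 as points. Across regions, which share the libraries and the depth, r was 0.774 on the left and -0.36 on the right.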

How the data were processed

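ATAC-seq signal was compared between the 2 MPP3 Npm1 and 2 MPP3 Dnmt3a libraries, grouped by the labels. The deposited signal values are whole numbers, scaled by 1 factor per library and rounded by the authors, so they are not raw counts. The submitters' processing notes list HOMER 4.10, R 3.6.0, edgeR 3.26.4 and DiffBind 2.12.0 and build mm10, with no role for each. Aligner, peak caller and scaling rule are not given in the sources used here. Total signal was 14683769 to 28748205 per library. The reads behind a value are unknown, so no counting interval is given.

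A test fitted to counts could not be used on scaled values. Regions of mean at least 100 were scaled by trimmed mean of M values factors, and limma 3.58.1 (R 4.3.3) was fitted to log2(normalized value + 4) over 14 libraries in 8 groups, with a robust trended prior, two-sided tests and Benjamini-Hochberg adjustment over 25058 regions at 0.05. A second fit added the log2 share of signal in tested regions. The procedure was run on simulated data with the same spread in every library and no enrichment gap. That run therefore cannot show how the fits behave under the unequal spread and enrichment of these libraries. The members, the 23 gene lists and the rules were chosen with earlier results of these data known. Named regions were the 8 of smallest p per direction without overlap between the groups in MPP3, 5 with the covariate, 3 in the other comparisons, up to 2 per list, and always those of Npm1, Dnmt3a, Hoxa9, Hoxa10, Meis1, Cebpa, Mpo and Irf8. Fhit, Hand2, Ctsg, Hoxb6 and Hoxb9 were named after their values were seen. Some regions that meet these rules are not reported here. Alternatives covered scaling, filters, pseudocounts, the libraries fitted, the replicate letter as a block, and each library left out. Libraries share replicate letters between groups, but the A minus B differences of the 2 MPP3 groups correlated at 0.067 over regions, so the letters were not taken as pairs. Promoters came from RefSeq (GRCm38.p6), without chromosome 18.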

Additional observations from a re-analysis of the deposited data

Results flagged for a closer look

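The Npm1 minus Dnmt3a difference differed between MPP3 and LT-HSC at 681 regions by limma's test of that difference, and the values below are MPP3 minus LT-HSC on the log2 scale, each past an adjusted p of 0.05. LT-HSC Dnmt3a is 1 library, enrichment differs in opposite directions in the 2 cell types, and 0 regions passed with the enrichment covariate, where 539 had an unadjusted p under 0.05.

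Among the regions named for MPP3, the difference was 3.14 at Pparg, 2.73 at Susd6, 2.35 at Ptbp3, 2.21 at Yif1b, 3.43 at Clec16a, 2.72 at E130308A19Rik and 3.36 near Gfod1. It was -2.41 at Mx1, -4.83 at Tmem267, -3.93 at Kif19a, -3.87 at Sox15, -2.13 at Egr3, -2.51 at Rara and -2.25 at Plekhh3. At Mx1 the sign was the same in both cell types, and the value was smaller in size in LT-HSC. With the enrichment covariate it was -2.44 in MPP3 and -2.24 in LT-HSC, a difference of -0.20 (SE 0.90).

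Among the regions named for LT-HSC or for the difference, it was -5.20 at Col19a1, -2.24 at Cmss1, -2.04 at Zc3h7a, 2.00 at 1700028E10Rik, 1.95 at Lrrc8d, 2.30 at Thrap3, 2.99 at Lyrm7, 2.81 near Lmntd1 and -4.50 at Coro1b. Among the regions named from lists, it was -3.34 inside Irf8 and -2.93 near Irf8, -2.06 at Bahcc1, -3.32 at Nr4a1, -3.36 at Col1a1 and -3.07 at Pax2. The Col19a1 value rests on a deposited value of 7 in the LT-HSC Dnmt3a library.

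Outside the tested regions, chromosome 18 held a share of signal 0.78 (log2) above the median library in MPP3 Dnmt3a B. The cause of that value was not tested.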

How the results depend on the processing

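Of the regions called between Npm1 and Dnmt3a MPP3 (2), the count was 506 with library totals as the scale, 10 with cyclic loess (5 higher, 5 lower), 5 at a mean of at least 50 (3 higher), 4 at a mean of at least 200 (all lower), 4 with no filter (all higher, with Mx1 at an adjusted p of 0.615 and Tmem267 at 0.824), 7 with a pseudocount of 1 (3 higher, 4 lower), 0 with only the 7 MPP3 libraries, 0 with only the 4 compared libraries and 0 with the enrichment covariate. Leaving out 1 library at a time gave 0 to 422, and the 422 without Dnmt3a B were 362 higher and 60 lower. Library totals moved the median of all regions to 0.70, so 492 of those 506 were higher. With the covariate, the count of 0 was 2 with no filter and 0 to 36 with 1 library left out. The LT-HSC count (3) was 7091 with library totals, 5 with median-of-ratios factors, 9 with cyclic loess, 0 at a mean of at least 50, 14 at 200, 0 with no filter, 9 and 0 with pseudocounts of 1 and 16, 13 with chromosome medians removed (added after seeing the data), 0 with the covariate and 0 to 116 with 1 library left out. The count for the difference between cell types (681) was 12390 with library totals, 79 with cyclic loess, 1878 at a mean of at least 50, 237 at 200, 12 with no filter, 0 with the covariate and 0 to 1965 with 1 library left out. The count for the average (0) was 1 with library totals, 1 at a mean of at least 50, 1 with the covariate and 0 to 20 with 1 library left out. Under a replicate block by letter, the MPP3 count was 2, the LT-HSC count 0 and the difference count 108, and the letters share only a name. Some named regions changed sign: Npm1 with the covariate (-0.052), the Dnmt3a start site with library totals (0.31) and no filter (0.39), a Hoxa10 region with library totals (0.12), no filter (0.20) and without MPP3 Dnmt3a A (0.23, and -1.345 without B), and the Meis1 start site with library totals (0.044) and no filter (0.12). Causes were not tested. With 2 libraries a group and 1 in LT-HSC Dnmt3a, small differences were not detectable.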
